A study of Mus musculus with 30 samples.

Results

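Kidneys of reprogrammable mice that lack Ink4a/Arf were compared with kidneys of reprogrammable mice that keep it. The comparison takes 10 of the 30 libraries of the series, 5 from i4F Ink4a/Arf KO mice and 5 from i4F mice, chosen by tissue and genotype label alone. All 10 mice were labelled C57BL/6, carried i4F, and drank 0.2 mg/ml doxycycline for 7 days, so the control group received the inducer as well. i4F is a doxycycline-inducible cassette of the reprogramming factors Oct4, which is encoded by Pou5f1, and Klf4, Sox2 and Myc. The labels give neither sex nor age, name no promoter or cell type for the cassette, and give each replicate as a mouse of its own. Gene levels are the authors' FPKM (fragments scaled by transcript length and by the mapped fragments of the library), and a difference between genotypes is a log2 fold change, the mean of log2(FPKM + 1) in i4F Ink4a/Arf KO minus that in i4F. This scale understates differences of genes near 1 FPKM. Of 19468 rows in the kidney table, 12074 genes (62.0%) reached 1 FPKM in at least 5 of the 10 libraries and were tested with limma.

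The Ink4a/Arf locus, gene Cdkn2a, encodes a pair of tumour suppressors from overlapping reading frames. Ink4a blocks the cyclin D kinases and so keeps the retinoblastoma protein active, and Arf binds Mdm2 and so stabilises p53. Both are barriers to reprogramming in cultured cells, and both accumulate in senescent cells. The neighbouring gene Cdkn2b encodes a further inhibitor of the cyclin D kinases.

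Several libraries stood apart for reasons that the labels do not give. Xist, the RNA made from the inactive X chromosome, was at 24.0 FPKM in KO replicate 1, 26.6 in i4F replicate 4 and 20.9 in i4F replicate 5, and at most 0.0259 in the other 7, so 1 of 5 KO mice and 2 of 5 i4F mice were female. In i4F replicate 5 a sum of 28 pancreas acinar genes reached 2355 FPKM, against 163 to 228 in the other i4F kidneys. KO replicate 1 had the highest Lyz2, a macrophage and neutrophil lysozyme (244 FPKM against 16.3 to 42.4 in the other 9 libraries), and KO replicate 3 the highest Lcn2, a tubule injury marker (199 against 1.67 to 42.7). Counts of genes at 1 FPKM or more ran from 11539 to 12473. Kap, an androgen-regulated proximal tubule transcript, was the most abundant in every library at 16741 to 76813 FPKM. Leaving out single libraries moved many of the results below, and the largest moves are given beside them.

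No gene passed an adjusted p under 0.05 (0%, limma with Benjamini-Hochberg adjustment), and the smallest adjusted p was 0.424, reached by Plin2 and Chordc1. At an unadjusted p under 0.05 there were 922 genes (7.64%), 298 higher in i4F Ink4a/Arf KO (2.47%) and 624 lower (5.17%). After median-of-ratios scaling of the libraries the same count split into 453 higher and 502 lower, so the excess on the lower side depended on the scaling. In 212 genes (1.76%) the 2 groups did not overlap, 67 with all KO libraries higher (0.555%) and 145 with all lower (1.2%).

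Differences were small for most genes. The median log2 fold change was -0.0036 and 48.8% of genes had a positive value. The middle part of the distribution, from the 25th to the 75th percentile, ran from -0.10 to 0.096, and the 5th and 95th percentiles were -0.26 and 0.28. The SD over genes was 0.24. For 88.1% of genes the estimate was under 0.25 in size, and 279 genes (2.31%) reached 0.5. The median standard error was 0.11, and the median 95% interval reached 0.25 to either side of the estimate. In 94.9% of genes the whole 95% interval lay within 1 log2 unit of 0. Genotype accounted for 11.9% of the summed squared deviations over the 10 libraries and all tested genes (median per gene 7.39%), close to its share of 11.1% of the degrees of freedom, 1 of 9.

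Estimates of at least 1 in size were found for 74 genes (0.613%), 30 higher and 44 lower. In 31 of them the unadjusted p was under 0.05, in 11 the groups did not overlap, and in 35 the estimate stayed at 1 or more whichever single library was left out. By name and list, 28 were small nucleolar, small nuclear or microRNA genes, and 20 were on the pancreas acinar list. Lists of genes known to differ between male and female kidneys held 3, and the tubule injury list 2. The other 21 were on none of these, Reg3b and 2210010C04Rik among them. Of the 28 short RNA genes, 26 were listed at 0 in at least 1 library, and in none did the groups separate. Most mature transcripts of this kind are short and carry no poly(A) tail. Snord12 was listed at 0 in i4F replicate 1 and in 4 KO libraries and at 233 to 433 FPKM in the other 5. With the short RNA genes left out, 46 of 12015 genes had an estimate of at least 1.

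**Figure D1:**
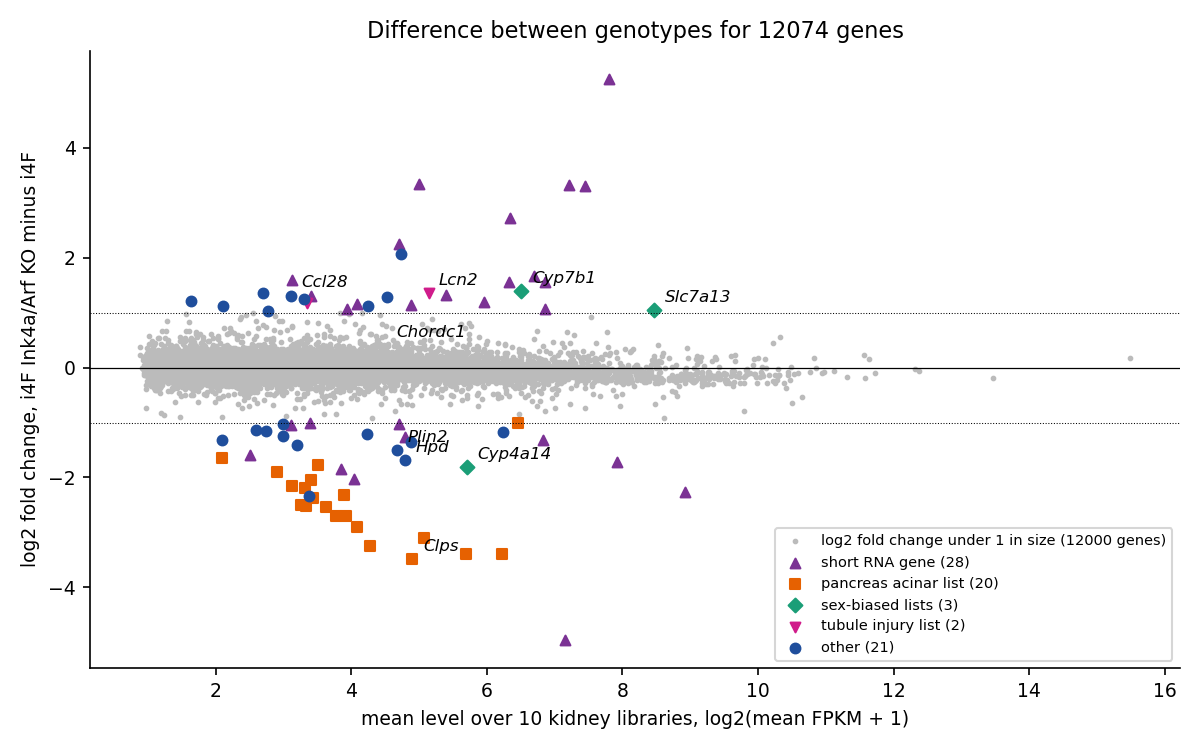
Each point is 1 of the 12074 tested genes. The x axis gives its mean level over the 10 kidney libraries as log2(mean FPKM + 1), the y axis its log2 fold change (i4F Ink4a/Arf KO minus i4F). Dotted lines mark a value of 1 in either direction, and the 74 genes past them are coloured by kind. Most genes lie within 0.25 of 0, and the acinar genes form the lower arm.

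Cdkn2a, the deleted locus, was close to absent in both genotypes. Its level was 0, 0.0746, 0, 0.0782 and 0.0608 FPKM in i4F replicates 1 to 5 and 0.0563, 0.0662, 0, 0 and 0 in i4F Ink4a/Arf KO replicates 1 to 5. It was too low to enter the fit, and a two-sided exact permutation test over the 10 libraries gave p = 0.365. The transcript therefore does not check the genotype labels in this tissue. In the mm10 annotation Cdkn2a lies on the minus strand at chr4:89274471-89294653, and Cdkn2b lies upstream of it at chr4:89306299-89311039.

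Cdkn2b was higher in 4 of 5 KO libraries than in any i4F library. It stood at 0.671, 1.71, 0.332, 1.44 and 1.52 FPKM in i4F and at 3.13, 2.84, 4.86, 0.53 and 3.54 in i4F Ink4a/Arf KO. The exception was KO replicate 4, which lay below 4 of the 5 controls. The log2 fold change was 0.82 ± 0.34 (SE, n = 5 per group; limma unadjusted p = 0.0363, adjusted p = 0.624) and 1.14 without KO replicate 4. Of the 6 tested cyclin-dependent kinase inhibitors 1 was higher (Cdkn2b) and 1 lower (Cdkn1c) at an unadjusted p under 0.05. Among all genes 2.47% were higher and 5.17% lower at that p. Without KO replicate 3 neither inhibitor had such a p. The higher count was 0 as well when any of KO replicates 1, 2 and 5 or i4F replicates 1 and 3 was left out, and the lower count when i4F replicate 5 was. Cdkn1c, which encodes p57 and marks podocytes in the adult kidney, averaged 14.0 ± 4.77 FPKM (SD, n = 5) in i4F and 8.46 ± 2.78 in KO, with a log2 fold change of -0.65 ± 0.24.

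Transcripts of the p53 branch differed little. Trp53 averaged 16.4 ± 2.199 FPKM (SD, n = 5) in i4F and 15.9 ± 1.90 in KO. Its log2 fold change of -0.04 ± 0.10 changed sign when KO replicate 1, KO replicate 4 or i4F replicate 4 was left out (0.00278, 0.00837 and 0.0373). Mdm2, the p53 ubiquitin ligase that Arf inhibits, averaged 11.02 ± 0.873 and 10.9 ± 1.23 FPKM, a log2 fold change of -0.02 ± 0.09, also of either sign with single libraries left out. Of 28 tested p53 target genes 21 had positive values, the median was 0.089, and 5 had an unadjusted p under 0.05, all higher, against 2.47% of all genes. Without KO replicate 1 the median was 0.025 with 17 positive and 11 negative, and without i4F replicate 4 it was 0.15. Among the 5 were Ccng1, which encodes cyclin G1 (49.3 ± 9.88 against 64.3 ± 3.33 FPKM, log2 fold change 0.40 ± 0.12), and Rrm2b, a subunit of ribonucleotide reductase (6.03 ± 0.974 against 7.93 ± 1.06, log2 fold change 0.35 ± 0.11). Cdkn1a, which encodes p21, was at 3.37, 3.80, 3.11, 16.3 and 10.4 FPKM in i4F and at 21.95, 8.73, 9.03, 4.63 and 5.44 in KO. Its 3 highest values came from the 3 female mice, and the log2 fold change was 0.45 ± 0.48.

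The induced factors varied more between mice than between genotypes. Pou5f1 was at 0.151, 0, 0.0417, 5.397 and 1.25 FPKM in i4F and at 0.492, 2.55, 4.87, 0 and 1.05 in KO. i4F replicate 4 and KO replicate 3 were thus high in both groups, and i4F replicate 2 and KO replicate 4 were listed at 0. Myc followed a similar order, with 11.2 FPKM in i4F replicate 4, 9.32 in KO replicate 3 and 1.59 in KO replicate 4. The log2 fold changes were 0.38 ± 0.60 for Pou5f1, 0.37 ± 0.49 for Myc and 0.16 ± 0.30 for Klf4. Left-out libraries moved Pou5f1 between 0.04 and 0.84. Sox2, under the filter, reached 2.29 FPKM in i4F replicate 4 and 2.00 in KO replicate 3 (exact permutation p = 0.714). Nanog, a pluripotency gene outside the cassette, stayed at or under 0.2496 FPKM in all 10 libraries (exact permutation p = 0.484). Il6, an inflammatory cytokine, had one value above 0.2 FPKM, 0.619 in KO replicate 2 (exact permutation p = 0.992). The 4 exact tests have a smallest possible p of 0.00794, and their adjusted values over the 4 genes are all 0.952 or more.

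Plin2 had the smallest p of all genes and was lower in every i4F Ink4a/Arf KO kidney. Its protein, perilipin 2, coats lipid droplets in the cytosol of most cell types. It was at 41.6, 34.7, 44.2, 30.8 and 29.9 FPKM in i4F and at 24.1, 9.51, 9.33, 10.9 and 10.2 in KO. The groups did not overlap, and KO replicate 1 lay nearest to the controls. The log2 fold change was -1.51 ± 0.24 (limma unadjusted p = 6.8e-05, adjusted p = 0.424). Without KO replicate 1 it was -1.75, with an adjusted p of 0.0011. Over the 24 alternative analyses the estimate ran from -1.90 to -1.43 and the adjusted p from 0.000692 to 0.887, under 0.05 in 5 of them. In the 5 kidneys of i4F p53 KO mice in the same table Plin2 was at 31.8 to 85.2 FPKM.

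The other lipid droplet genes differed less than Plin2. Of 14 tested members of the list 8 had negative values and the median was -0.13, or -0.078, -0.081 and -0.075 without KO replicate 1, i4F replicate 1 and i4F replicate 3. Plin2 and Pnpla2 were the 2 with an unadjusted p under 0.05 and the 2 whose groups did not overlap. On the lower side these shares were 5.17% and 1.2% of all genes. Pnpla2, which encodes the lipase that starts triglyceride breakdown, averaged 41.9 ± 2.88 FPKM (SD, n = 5) in i4F and 33.7 ± 2.37 in KO (log2 fold change -0.31 ± 0.07). Of 32 tested genes of fatty acid oxidation and PPAR alpha targets 29 had negative values, with a median of -0.14, and 2 had an unadjusted p under 0.05, a share near the 5.17% of all genes that were lower. That count was 11 without KO replicate 1, 5 without i4F replicate 2 and 0 without KO replicate 3, and the median was -0.089 without i4F replicate 3. The 2 genes were Acaa1b and Acaa1a, peroxisomal thiolases, at -0.47 ± 0.17 and -0.30 ± 0.12.

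Plin2 lies at chr4:86648386-86670060 on the minus strand, 2.63 Mb from the Cdkn2a locus. Other tested genes in this stretch of chromosome 4 were looked up after these values had been seen. Not counting Plin2, which led to this stretch, the groups did not overlap in 1 of 13 tested genes within 5 Mb to each side of the start of Cdkn2a (7.69%), 3 of 39 within 10 Mb (7.69%), 3 of 101 within 20 Mb (2.97%) and 13 of 703 on the whole chromosome (1.85%), against 1.76% of all genes. These counts are a description with no test. The 3 within 10 Mb were Klhl9, a substrate adaptor of a ubiquitin ligase, Zdhhc21, a palmitoyltransferase, and Mpdz, a multi-PDZ scaffold protein. Klhl9, 0.556 Mb away, averaged 21.3 ± 2.25 FPKM in i4F and 16.9 ± 1.496 in KO, a log2 fold change of -0.32 ± 0.09. Zdhhc21 and Mpdz, 6.48 and 8.00 Mb away, stood at 0.28 ± 0.11 and 0.25 ± 0.10, with groups only 0.0210 and 0.00712 FPKM apart. These genes share a chromosome region with the deleted locus, so the knocked-out allele and any other inherited difference in that region cannot be told apart.

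Heat shock genes leaned to the higher side in KO, from -0.14 to 0.67 on the log2 scale. Cells answer misfolded protein in the cytosol through heat shock factors, which bind inverted repeats of the letters GAA in the promoters of chaperone genes. Of 14 tested list members 10 had positive values, and the median was 0.22. At an unadjusted p under 0.05 there were 5, all higher, against 2.47% of all genes. That count was 3 after median-of-ratios scaling, 8 with array weights and 0 with all 15 kidney libraries in the fit. In Chordc1, Hspa4l and Hsph1, 3 of the 14, every KO library lay above every i4F library, against 0.555% of all genes. Hsp90aa1, the inducible cytosolic Hsp90, averaged 120 ± 7.23 FPKM (SD, n = 5) in i4F and 147 ± 18.3 in KO (log2 fold change 0.28 ± 0.09), and Dnaja1, an Hsp40 co-chaperone, 46.1 ± 5.90 and 56.2 ± 7.24 (0.28 ± 0.11). The classical stress-induced Hsp70 genes Hspa1a and Hspa1b, near-identical copies between which reads are split with uncertainty, stood at -0.12 ± 0.28 and 0.091 ± 0.39, and both took either sign when single libraries were left out. Leaving out single libraries moved the list median between 0.16 and 0.28.

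Chordc1, a co-chaperone of Hsp90, was at 18.1, 19.9, 17.0, 18.4 and 19.96 FPKM in i4F and at 25.6, 24.1, 25.9, 23.5 and 25.4 in KO. The lowest KO value was 3.52 FPKM above the highest i4F value, and the SDs were 1.29 and 1.04. The log2 fold change was 0.40 ± 0.06 (limma unadjusted p = 7.02e-05, adjusted p = 0.424), and it stayed between 0.37 and 0.42 over all alternatives, with an adjusted p of 0.142 to 0.997. In the i4F p53 KO kidneys Chordc1 was at 8.15 to 26.7 FPKM, a range that takes in both groups. Hspa4l and Hsph1 belong to the Hsp110 family, which exchanges nucleotide on Hsp70. Hspa4l was at 6.52 to 8.43 FPKM in i4F and 9.08 to 11.7 in KO (0.39 ± 0.09), and Hsph1 at 27.9 to 34.8 and 34.9 to 44.0 (0.34 ± 0.08).

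Chaperones of the endoplasmic reticulum leaned to the higher side as well. The unfolded protein response raises such chaperones when secretory protein misfolds. Of 22 tested list members 18 had positive values, and the median was 0.27. At an unadjusted p under 0.05 there were 10, all higher (5 with all 15 kidney libraries in the fit), against 2.47% of all genes. In Sel1l, 1 of the 22, every KO library lay above every i4F library, against 0.555% of all genes. Sel1l, the adaptor of a ubiquitin ligase that clears misfolded secretory protein, was at 17.1, 18.8, 14.1, 17.1 and 17.8 FPKM in i4F and at 21.6, 20.7, 21.4, 20.1 and 24.4 in KO, a log2 fold change of 0.33 ± 0.08. Hspa5, which encodes the lumenal Hsp70 BiP, was at 141, 170, 150, 167 and 199 FPKM in i4F and at 269, 231, 216, 170 and 241 in KO (0.44 ± 0.13). KO replicate 4 alone lay within the range of the controls for Hspa5, and the estimate without it was 0.54. Hyou1, an endoplasmic reticulum Hsp110, showed the same order with KO replicate 4 at 20.4 FPKM and the other KO libraries at 27.4 to 33.7 (0.44 ± 0.12). Creld2, an endoplasmic reticulum stress gene, was at 0.33 ± 0.14.

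The promoters of Hspa5 and Creld2 are shown because both genes had positive log2 fold changes and both stretches hold the letters CCAAT and CCACG, the ends of the endoplasmic reticulum stress response element. The 150 bases before the first transcribed base are given from RefSeq (GRCm38.p6, plus strand), chr2:34771940-34772089 for Hspa5 and chr15:88819496-88819645 for Creld2. Capitals mark CCAAT and CCACG read on either strand, so that ATTGG and CGTGG are matches on the opposite strand.
Hspa5: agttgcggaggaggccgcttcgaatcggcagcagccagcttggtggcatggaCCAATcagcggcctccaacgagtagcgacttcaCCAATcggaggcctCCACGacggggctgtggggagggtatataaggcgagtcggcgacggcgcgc
Creld2: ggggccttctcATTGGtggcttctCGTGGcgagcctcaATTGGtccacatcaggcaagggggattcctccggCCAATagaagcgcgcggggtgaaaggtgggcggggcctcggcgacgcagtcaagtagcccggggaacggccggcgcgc
Hspa5 has 2 matches to CCAAT and 1 to CCACG in this stretch, and Creld2 has 3 and 1. In the whole RefSeq promoter, 250 bases before to 50 after the start, both motifs were found in 15 of the 20 list genes with an entry, Sel1l among them, and in 11.7% of all 32851 promoters. CCAAT, with or without the other, was in 17 of the 20 and in 37.4% of all promoters, and CCACG in 15 and in 32.8%. A list gene was counted if any of its promoter entries matched, whereas the shares over all promoters count single entries, so the units differ. A match says only that the letters are present. The genes and both motifs were chosen with the values and earlier motif matches known.

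Both chaperone lists kept their direction in every alternative run. The same held for several other lists, among them p53 target, tubule injury, podocyte and ribosomal protein genes. The heat shock median ran from 0.16 to 0.33 and the unfolded protein response median from 0.20 to 0.29 over 24 alternatives. The members of a list share regulators and are not independent of each other.

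The remaining genes with the largest separated differences on the higher side were Ccl28, Ypel2, Atp13a3, Paip1, Tmed5 and Gnai1. Ccl28 encodes a chemokine of mucosal epithelia. It was at 0.809, 6.28, 7.00, 2.49 and 5.35 FPKM in i4F and at 14.1, 7.07, 12.5, 10.02 and 10.9 in KO, a log2 fold change of 1.31 ± 0.38. The groups came close to touching, at 7.00 and 7.07 FPKM, and i4F replicate 1 alone moved the estimate to 0.96. In the i4F p53 KO kidneys Ccl28 was at 1.24 to 5.29 FPKM, within the range of i4F. Ypel2 averaged 3.24 ± 0.773 FPKM (SD, n = 5) in i4F and 5.27 ± 1.03 in KO (0.57 ± 0.15). Paip1, a partner of the poly(A)-binding protein, averaged 11.1 ± 0.717 and 15.03 ± 1.65 (0.41 ± 0.08). Atp13a3, a membrane transport ATPase, Tmed5, a cargo protein of the early secretory pathway, and Gnai1, an inhibitory G protein subunit, were at 0.41 ± 0.13, 0.41 ± 0.11 and 0.39 ± 0.09.

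On the lower side, beyond acinar genes and Plin2, Hpd had the largest separated difference. Hpd encodes 4-hydroxyphenylpyruvate dioxygenase, an enzyme of tyrosine breakdown. It was at 14.5, 17.1, 30.1, 92.8 and 62.2 FPKM in i4F and at 6.22, 11.3, 12.3, 13.5 and 7.89 in KO. The 2 female i4F mice were the highest, whereas the female KO mouse was the lowest. The log2 fold change was -1.68 ± 0.47, -0.77 with the 7 male libraries alone and -1.97 without i4F replicate 1. In the i4F p53 KO kidneys Hpd was at 9.24 to 22.3 FPKM, a range that overlaps both groups. Fam158a, a subunit of the endoplasmic reticulum membrane protein complex, averaged 11.8 ± 0.983 FPKM (SD, n = 5) in i4F and 8.58 ± 0.390 in KO (-0.41 ± 0.07, unadjusted p = 0.000122, adjusted p = 0.49). Gstk1, a glutathione transferase of mitochondria and peroxisomes, averaged 67.2 ± 7.07 and 48.2 ± 5.07 (-0.47 ± 0.10).

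**Figure D2:**
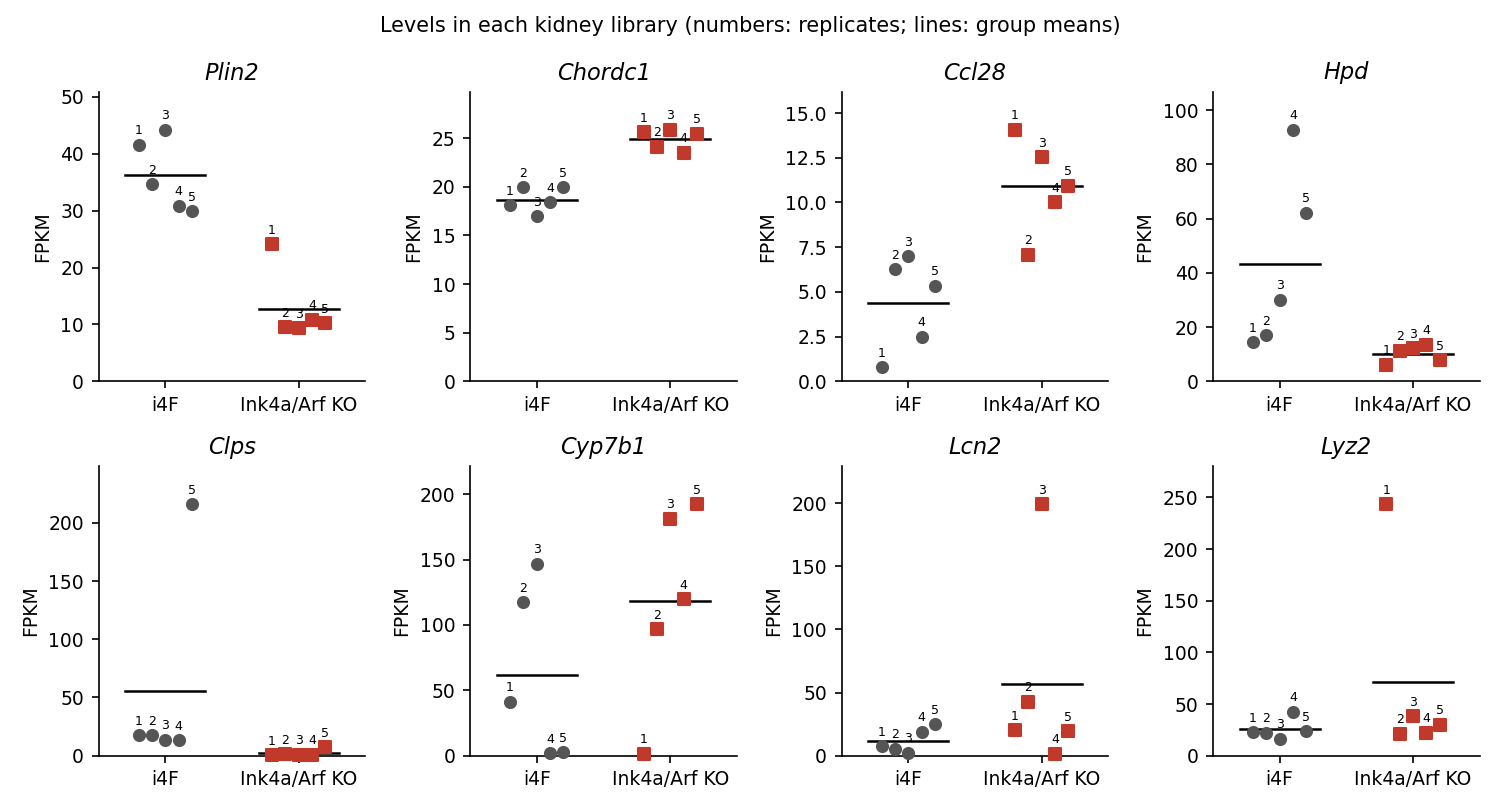
FPKM of 8 genes in each of the 10 kidney libraries, with i4F as grey circles, i4F Ink4a/Arf KO as red squares, replicate numbers beside the points and the group mean as a line; each panel has its own linear axis from 0. Plin2, Chordc1, Ccl28, Hpd and Clps do not overlap between groups, whereas the group means of Lcn2 and Lyz2 are set by 1 KO library each and Cyp7b1 splits each group by sex.

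The largest differences of any list were those of pancreas acinar genes, most of which encode digestive enzymes and are not a kidney programme. Values were negative for all 22 tested members (median -2.44), 20 had an unadjusted p under 0.05, and 8 had groups that did not overlap. Among all genes 5.17% were lower at that p, and 1.2% had all KO libraries lower. Clps, which encodes the cofactor of pancreatic lipase, was at 17.5, 17.3, 13.8, 13.4 and 216 FPKM in i4F and at 0.390, 1.155, 0.820, 0.926 and 7.37 in KO. i4F replicate 5 was the highest of its group by far, and KO replicate 5 the highest of the other. The log2 fold change was -3.49 ± 0.77, and -2.745 without i4F replicate 5. Pnlip, pancreatic lipase, averaged 36.1 ± 62.3 FPKM (SD, n = 5) in i4F and 0.750 ± 0.497 in KO, with a log2 fold change of -3.24 ± 0.73. It passed the adjusted threshold once i4F replicate 5 was left out (-2.44, adjusted p = 0.0044), and over the alternatives its adjusted p ran from 0.0044 to 0.997.

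Cela2a, Ctrl, Cpb1, Cel and Rnase1, all of them secreted digestive enzymes, were likewise separated, at -3.39, -2.89, -2.53, -2.51 and -2.36. Spink3 and Cela1 were left out of the acinar sum because kidneys of both groups held them at 1782 to 2555 and 27.6 to 242 FPKM. The remaining 28 acinar genes summed to 228, 217, 210, 163 and 2355 FPKM in i4F and to 12.1, 22.5, 21.3, 16.2 and 295 in KO. In KO replicate 5 the sum was above that of 4 controls, so the groups overlapped in the sum though not in Clps. Without i4F replicate 5 the list median was -1.79, and without KO replicate 5 it was -2.90. In whole kidney RNA fewer cells of a type and less RNA per cell cannot be told apart. Islet genes were low in both groups, with 15 markers summing to at most 3.27 FPKM, and 9 adrenal markers to at most 1.02. Where the acinar transcripts came from was not tested.

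Broad classes of abundant transcripts were slightly lower in KO. As background, 5.17% of all genes were lower and 2.47% higher at an unadjusted p under 0.05. Of 45 cytosolic ribosomal protein genes all had negative values, with a median of -0.21, and 15 had an unadjusted p under 0.05. That count was 35 without i4F replicate 2, 25 without KO replicate 1, 9 without KO replicate 5, 5 without i4F replicate 4 and 1 without KO replicate 4 or i4F replicate 5, and 0 with all 15 kidney libraries in the fit. Rpl13, of the large subunit, averaged 573 ± 52.6 FPKM (SD, n = 5) in i4F and 483 ± 35.1 in KO. All 37 subunits of oxidative phosphorylation were negative as well (median -0.14, 9 with an unadjusted p under 0.05, and 3 to 5 without KO replicate 2, 3 or 4 or i4F replicate 1, 3 or 5), among them Ndufa5 of complex I at 234 ± 21.7 and 194 ± 19.7 FPKM. Their size depended on the scaling: after quantile normalization the medians were -0.092 and -0.014, none of the ribosomal genes had an unadjusted p under 0.05, and 11 of 37 oxidative phosphorylation genes turned positive. Of 19 sterol synthesis genes 15 were positive with a median of 0.17, and 2 had an unadjusted p under 0.05, or 6 without KO replicate 4 and 0 without KO replicate 2 or 3. They were Stard4, a cholesterol transporter (0.39 ± 0.15), and Sqle, squalene epoxidase (0.47 ± 0.21).

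The markers of kidney cell types identified the tissue in every library, and proximal tubule genes leaned to neither side as a list. Summed proximal tubule markers reached 15554 to 22014 FPKM in i4F and 13289 to 21043 in KO, and of 34 genes 14 were positive and 20 negative (median -0.037, none with an unadjusted p under 0.05). Miox, a proximal tubule enzyme of inositol breakdown, was at 1473 to 1938 FPKM in i4F and at 527 in KO replicate 3 against 1384 to 1785 in the other KO libraries. Its log2 fold change of -0.53 ± 0.30 became -0.21 without that library. Slc22a8, an organic anion transporter of the same segment, went from -0.66 ± 0.36 to -0.31. Podocyte genes were negative in 11 of 11 (median -0.31, 3 with an unadjusted p under 0.05, against 5.17% of all genes that were lower). Without KO replicate 1 these became -0.47 and 7 genes, without i4F replicate 3 -0.42 and 6, and without i4F replicate 5 or KO replicate 3 -0.22 and -0.24 with 0. Without KO replicate 4, KO replicate 5, i4F replicate 1 or i4F replicate 4 the count was 1. Distal nephron and collecting duct genes were negative in 23 of 27 (median -0.25, 7 with an unadjusted p under 0.05, against the same 5.17%). Their count was 11 without KO replicate 1 (median -0.40), 3 without KO replicate 2, 2 without i4F replicate 1, 1 without KO replicate 3, and 0 without KO replicate 5, i4F replicate 4 or i4F replicate 5. Both lists were highest in the 3 female mice, i4F replicates 4 and 5 and KO replicate 1. Against their i4F means, distal genes lay 0.15, 0.39 and 0.054 log2 units higher in these 3, and podocyte genes 0.33, 0.38 and 0.069. With the 7 male libraries alone the medians were -0.21 for podocyte and -0.28 for distal genes, with 10 of 11 and 16 of 27 negative. Scnn1b, a subunit of the epithelial sodium channel, averaged 19.9 ± 4.73 and 14.2 ± 2.15 FPKM (-0.44 ± 0.16), and Slc26a4, an anion exchanger of intercalated cells, 31.1 ± 6.87 and 20.04 ± 7.26 (-0.66 ± 0.26).

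Tubule injury, matrix and mitosis genes leaned to the higher side with wide spread. The share of all genes that were higher at an unadjusted p under 0.05 was 2.47%, to be set beside the counts here. Of 29 tubule injury genes 26 were positive with a median of 0.40, but 1 had an unadjusted p under 0.05 (6 without KO replicate 4), Hmox1, heme oxygenase (16.8 ± 5.69 and 25.1 ± 7.44 FPKM, SD, n = 5). Lcn2 was at 7.43, 5.61, 2.30, 18.9 and 24.8 FPKM in i4F and at 20.4, 42.7, 199, 1.67 and 19.6 in KO, so the KO group held both the highest and the lowest value. Krt19, a keratin of injured tubules and collecting ducts, was at 17.9 and 47.6 FPKM in KO replicates 2 and 3 and at 0.487 to 4.89 in the other KO libraries. Havcr1, which encodes Kim-1, was at 27.9 and 80.9 in the same pair and at 0.403 to 2.75 elsewhere in the group. Without KO replicate 3, KO replicate 1 or i4F replicate 3 the list median was 0.14, 0.20 or 0.22, and without KO replicate 4 or i4F replicate 4 it was 0.60 or 0.62. Of 22 fibroblast and matrix genes 20 were positive and 1 had an unadjusted p under 0.05 (median 0.28, or 0.12 without i4F replicate 3, 0.13 without KO replicate 3, 0.16 without i4F replicate 2 and 0.19 without KO replicate 1), with Postn, periostin, at 0.838 ± 0.350 and 1.66 ± 0.489 FPKM. All 13 tested mitosis genes were positive (median 0.27, none with an unadjusted p under 0.05), a median that ran from 0.085 without i4F replicate 2 to 0.57 without i4F replicate 4.

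Macrophage markers followed a single mouse, and neutrophil markers were high in 3 of the 5 KO mice. Of 19 macrophage and antigen presentation genes 18 were positive with a median of 0.25, and the median without KO replicate 1 was -0.10. Lyz2 was at 22.4, 22.1, 16.3, 42.4 and 23.8 FPKM in i4F and at 244, 21.3, 38.1, 22.1 and 30.0 in KO, a log2 fold change of 0.78 ± 0.60 that became 0.16 without KO replicate 1. Ptprc, the pan-leukocyte CD45, was at 8.08 FPKM in that library and at 2.07 to 2.41 in the other 4, and its estimate of 0.28 became -0.018. The 3 tested neutrophil genes were all positive, with a median of 0.59, or 0.88 without KO replicate 1, and 1 had an unadjusted p under 0.05. Their median deviation from the i4F means of the genes was 1.17, 1.16 and 1.39 log2 units in KO replicates 2, 3 and 5. It was -0.18 and -0.17 in KO replicates 1 and 4, and at most 0.21 in any i4F mouse. The inflammatory secreted factors associated with senescence were positive in 10 of 14, median 0.21. Without i4F replicate 3 the median was 0.050 with 7 positive and 7 negative, without KO replicate 1 it was 0.11, and with a filter of 5 FPKM it was -0.044 with 3 of 7 positive. In the reported analysis 2 had an unadjusted p under 0.05, both higher, against 2.47% of all genes. Ccl8, a monocyte chemokine, was at 0.97 ± 0.41 and Gdf15, a stress cytokine, at 0.47 ± 0.20.

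**Figure D3:**
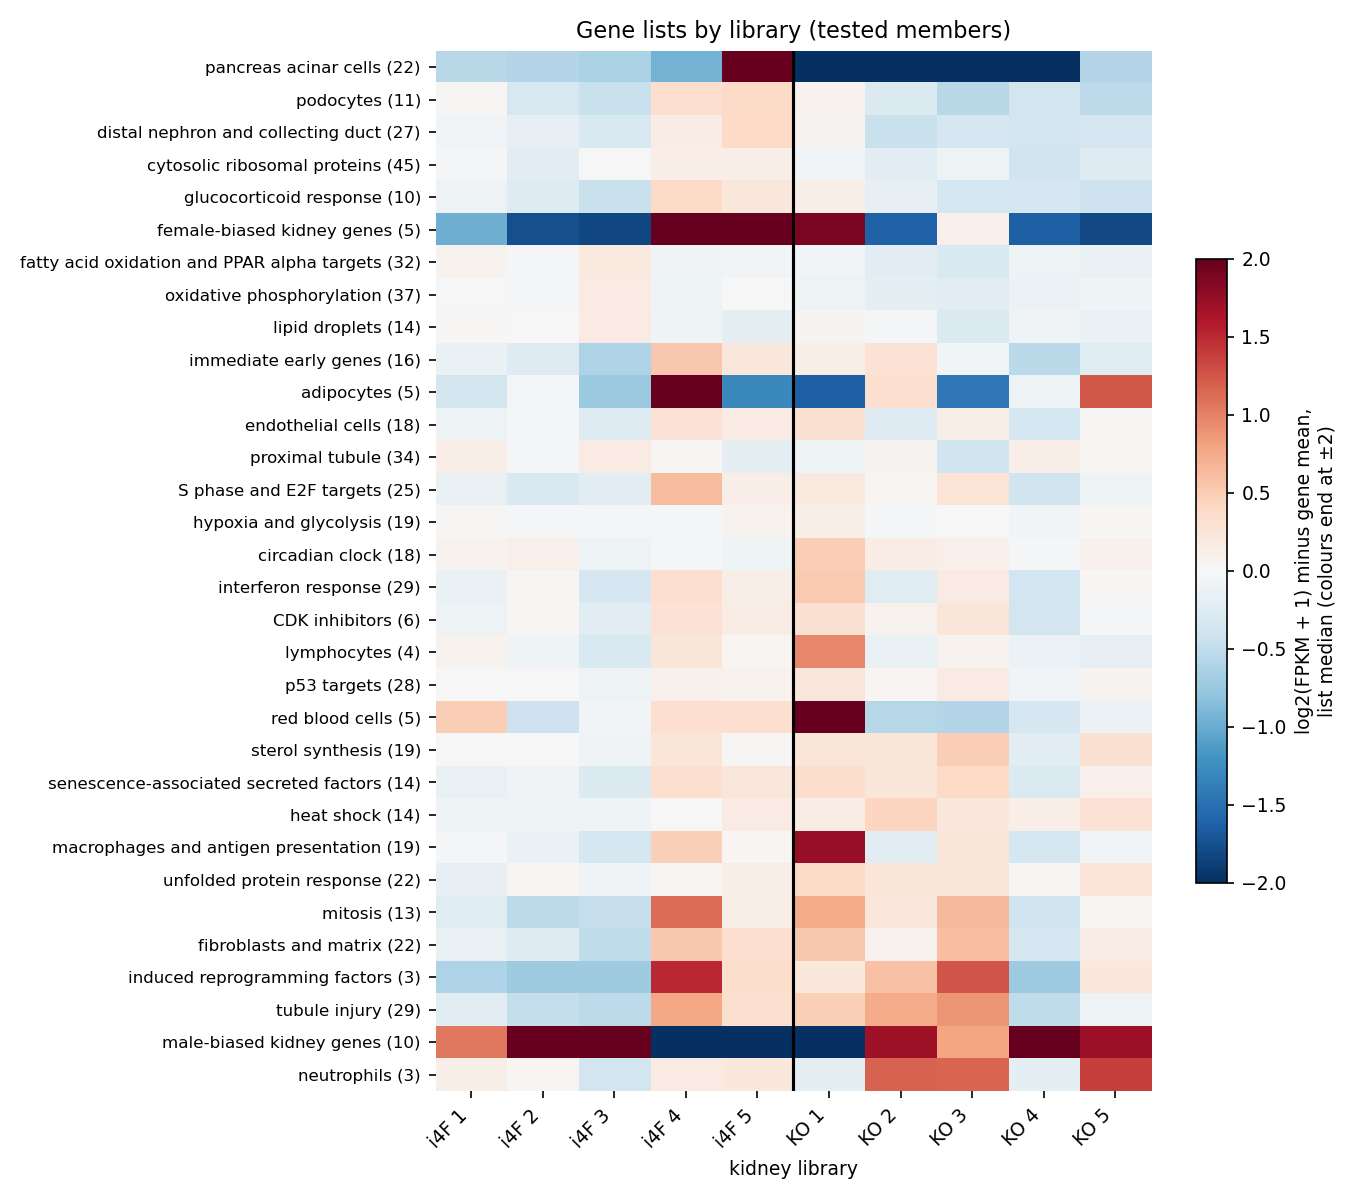
Rows are gene lists (tested members in brackets), ordered by their median log2 fold change, and columns are the 10 libraries, with i4F to the left of the line. Colour gives the list median of log2(FPKM + 1) minus each gene's mean over the 5 i4F libraries. Acinar genes are high in i4F 5 and low in KO 1 to KO 4, and the sex-biased lists single out i4F 4, i4F 5 and KO 1. Heat shock genes are above their i4F mean in all 5 KO libraries and in i4F 5, where they exceed KO 1 and KO 4.

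For most genes mice of one genotype differed by more than the genotypes did. The median SD of log2(FPKM + 1) between the 5 mice was 0.19 in i4F and 0.16 in KO, and for 21.1% of genes the estimated difference exceeded the pooled SD. The SD exceeded 1 in 193 genes in i4F and 203 in KO. The 10 male-biased genes of the kidney had a median SD of 2.48 and 2.52, against 0.13 and 0.091 for oxidative phosphorylation. Slc7a13, an amino acid transporter of the proximal tubule that is abundant in males, was at 314 to 587 FPKM in 3 i4F mice and at 2.86 and 8.30 in the other 2, and at 473 to 576 in 4 KO mice and at 0.796 in KO replicate 1. Cyp7b1, an oxysterol hydroxylase, was at 41.2, 117, 147, 1.96 and 2.86 FPKM in i4F and at 1.55, 96.9, 181, 120 and 193 in KO. Cyp4a14, a fatty acid hydroxylase, took the opposite order, with 161 and 153 FPKM in i4F replicates 4 and 5 and 144 in KO replicate 1. Their log2 fold changes were 1.04 ± 1.98, 1.40 ± 1.47 and -1.81 ± 1.26, and those of Slc7a13 and Cyp7b1 were smaller than their standard errors.

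The first principal component held 40.3% of the variance and separated KO replicate 1 and i4F replicates 4 and 5 from the other 7. The second held 17.0% and placed KO replicate 3 at one end and i4F replicate 3 at the other. By correlation over all tested genes, KO replicate 1 was closest to i4F replicate 4, and KO replicates 4 and 5 were both closest to i4F replicate 2. With the 7 male libraries alone the median log2 fold change of the male-biased list went from 0.46 to -0.14. That of the heat shock list was 0.27 and of the acinar list -1.62, and Plin2 stood at -1.90 with an adjusted p of 0.000692 (range over the alternatives as above).

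**Figure D4:**
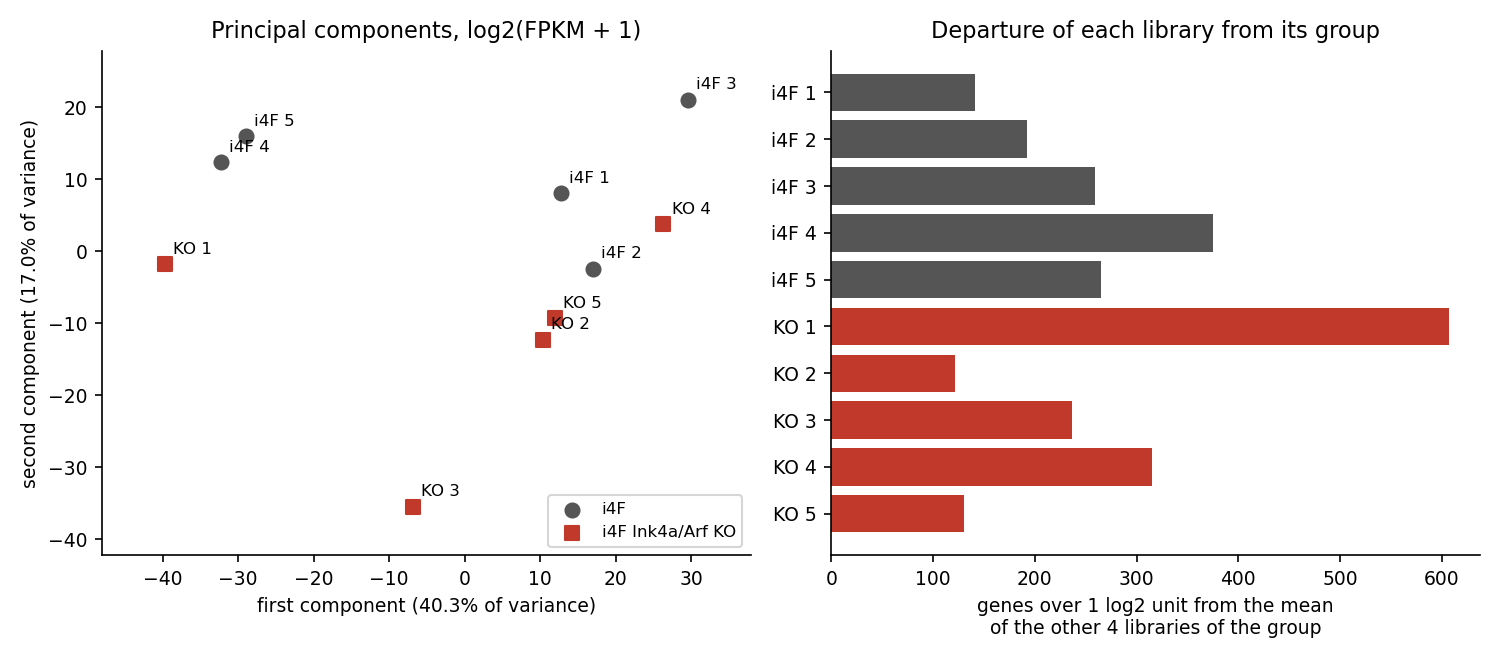
The left panel places the 10 libraries on the first 2 principal components of log2(FPKM + 1), with i4F as circles and i4F Ink4a/Arf KO as squares. The right panel counts, for each library, the genes that lie over 1 log2 unit from the mean of the other 4 libraries of its group. KO replicate 1 departs most, with 607 genes, and KO replicate 2 least, with 121.

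Single libraries weighed unevenly on the estimates. When each library was left out in turn, the one whose removal moved a gene most was i4F replicate 3 for 3009 genes (24.9%) and KO replicate 1 for 2559 (21.2%), against 217 (1.80%) for KO replicate 5. The direction of the difference was the same in all 10 repeats for 7418 genes (61.4%), and in 8154 genes (67.5%) the removal of at least 1 library took away over 0.5 of the estimate or turned its sign. Among the 74 genes with an estimate of at least 1 in size this held for 23, of which 3 changed sign, and i4F replicate 5 was the strongest library for 19. The genes that moved furthest were Snord47, Snord4a, Snord12, Mir707 and Slc7a13. Snord47 went from -2.27 to -0.54 without KO replicate 5, where it was listed at 0, and Slc7a13 went from 1.04 to 2.68 without KO replicate 1.

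The counts moved as well. With 1 library left out, between 608 and 1299 genes had an unadjusted p under 0.05, the low end without i4F replicate 5 and the high end without i4F replicate 2. Genes past the adjusted threshold numbered 0 in 7 of the 10 repeats. In the other 3 they were Plin2 without KO replicate 1, Reg3a and Reg3b, which encode secreted lectins of pancreas and gut, without KO replicate 5, and Pnlip without i4F replicate 5. In contrast, Chordc1, Hspa4l, Paip1 and Fam158a moved by at most 0.054 whichever library was left out. With KO replicates 1 and 3 and i4F replicates 4 and 5 all left out, a choice made after seeing the data, 2 genes passed (Plin2 and Pnlip), 608 had an unadjusted p under 0.05, and the medians were 0.33 for heat shock, 0.20 for the unfolded protein response, -1.41 for acinar, 0.43 for tubule injury and -0.074 for macrophage genes.

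**Figure D5:**
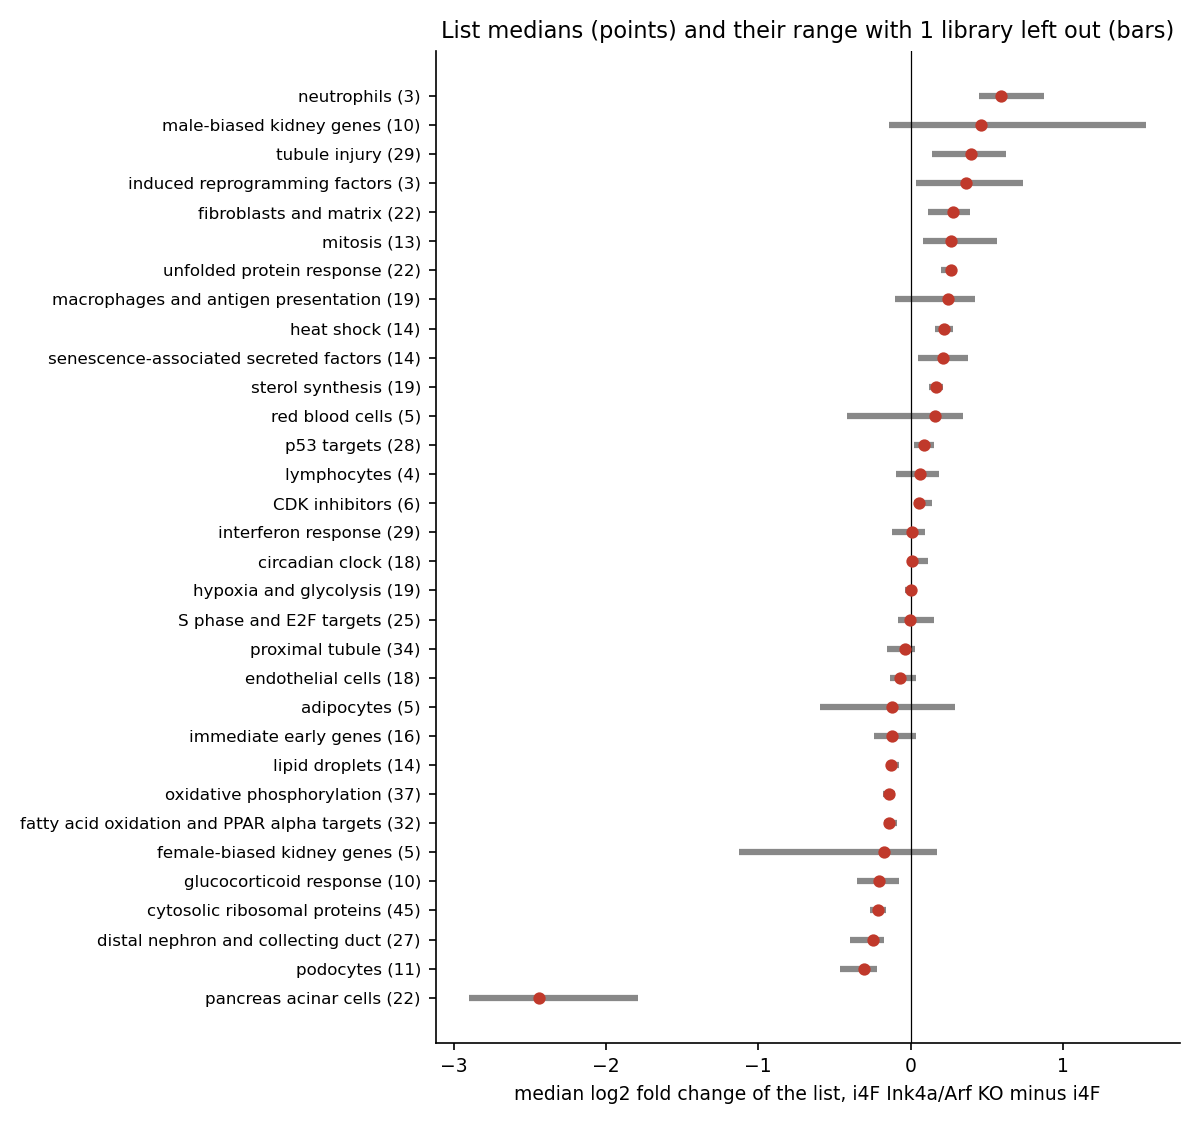
For each gene list (tested members in brackets) the point is the median log2 fold change (i4F Ink4a/Arf KO minus i4F) and the bar the lowest to highest median when 1 of the 10 libraries is left out. The heat shock bar spans 0.16 to 0.28, whereas the macrophage and male-biased bars cross 0.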

How the data were processed

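Kidney RNA of 10 mice, 5 per genotype, was sequenced as poly(A) libraries that keep strand (1 µg of RNA, 8 PCR cycles), per the labels' protocols. These state an RNA integrity number between 7.4 and 9.4, 8 on average, and more than 24 M reads mapped in each sample. Gene levels were deposited by the authors as FPKM in one kidney table. Cufflinks 2.2.1, TopHat2 2.0.10, SAMtools 0.1.19, Bowtie 1.0.0 and FastQC are listed without roles in the submitters' processing notes, beside the build mm10. Any further scaling between libraries is not given in the sources used here. Read counts were not used, so the depth behind single genes is unknown and no counting interval was computed. FPKM are relative to each library, so a few very abundant transcripts can shift all others.

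log2(FPKM + 1) was fitted with limma 3.58.1 in R 4.3.3 (lmFit, eBayes with a trend) on the 10 libraries, two-sided, with Benjamini-Hochberg adjustment over all 12074 genes and no covariate. Genes under the filter were tested by exact permutation over all splits. Nothing in the labels says more than that each replicate was a mouse, so p-values measure the spread between these samples. The gene lists (36 lists, 703 genes, drawn up from textbook knowledge) and the members compared were chosen with earlier results of these data known. Lists were described by counts and medians, with no test. Genes to name were set by rule: Cdkn2a, Cdkn2b, Trp53, Mdm2, Cdkn1a, Pou5f1, Sox2, Klf4, Myc, Nanog, Il6 and Plin2 always; the 8 largest rises and 8 largest falls among genes with an unadjusted p under 0.05, groups that do not overlap, and a mean of 2 FPKM or more in the higher one; the 5 smallest p; the 2 smallest p of each list with at least 4 tested members; and the 5 genes that a single left-out library moves most. The text names a part of these. Other genes were named after their values were seen: Lcn2, Krt19, Havcr1, Hsph1, Hspa5, Creld2, Hsp90aa1, Dnaja1, Hspa1a, Hspa1b, Klhl9, Zdhhc21, Mpdz, C4b, Kap, Xist, Spink3, Cela1, Reg3a and Reg3b.

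Positions come from GENCODE M21 (mm10) and promoters from RefSeq (GRCm38.p6). Alternatives were quantile normalization, median-of-ratios scaling, robust variances, array weights, 0.1 as the pseudocount, a 5 FPKM filter or none, all 15 kidney libraries in the fit, replicate number as a block, Xist as a covariate, males alone, each library left out, and KO replicate 1 with i4F replicate 5 left out. Leaving out short RNA genes, and 4 libraries together, was added after the data were seen.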

Additional observations from a re-analysis of the deposited data

Results flagged for a closer look

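In 33 of 166 groups of 5 values (83 genes, 2 genotypes) the highest or lowest library stood apart from the other 4 by a gap of over 0.71 of the group's range; chance flags about 1 in 20 groups, and the genes were chosen with their values known. KO replicate 1 accounted for 9 of these values: Cdkn1a at 21.95 FPKM, Plin2 at 24.1, Lyz2 at 244, Ptprc at 8.08, Cdkn1c at 13.3, Cyp4a14 at 144, Prlr, the prolactin receptor, at 37.3 and Cldn5, an endothelial tight junction gene, at 9.91 were the highest KO values, and Slc7a13 at 0.796 the lowest. In i4F replicate 5 the 7 acinar enzymes stood apart, with Clps at 216 FPKM, Cela2a at 372, Pnlip at 148, Ctrl at 119, Cpb1 at 83.3, Cel at 65.5 and Rnase1 at 73.2. In KO replicate 5 the same genes except Pnlip did so at lower levels, with Clps at 7.37, Cela2a at 16.3, Ctrl at 4.58, Cpb1 at 5.00, Cel at 2.00 and Rnase1 at 3.76. In i4F replicate 4 Trp53 was at 20.3 FPKM, Pou5f1 at 5.397, Sox2 at 2.29 and Lyz2 at 42.4. Single values were Lcn2 at 199 and Zdhhc21 at 3.58 in KO replicate 3, Il6 at 0.619 in KO replicate 2, Snord12 at 233 in KO replicate 4 (listed at 0 in the other KO libraries), Rps19, a ribosomal protein gene, at 349 and Miox at 1473, both lowest, in i4F replicate 2, and Clock at 3.56, lowest, in i4F replicate 3.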

How the results depend on the processing

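The number of genes past the adjusted threshold, 0 in the reported analysis, became 1 with array weights, 2 with males alone, 2 without KO replicate 1 and i4F replicate 5, 2 with 4 libraries left out, and 0 to 2 with single libraries left out. Genes with an unadjusted p under 0.05 (922) numbered 398 with all 15 kidney libraries in the fit, 1523 with Xist as a covariate, 608 with 4 libraries left out, and 608 to 1299 with single libraries left out. Genes without overlap (212) numbered 903 with males alone, 466 without KO replicate 1 and i4F replicate 5, 1379 with 4 libraries left out and 245 to 590 with single libraries left out; fewer libraries make separation easier by construction. Estimates of at least 1 in size (74) numbered 115 with a pseudocount of 0.1, 146 with no filter, 46 without short RNA genes and 63 to 123 with single libraries left out.

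With replicate number as a block 9 genes passed, all of them lower acinar or Reg genes, Clps and Cela2a among them (adjusted p = 0.0168), and 534 had an unadjusted p under 0.05. Over all tested genes, the deviations of same-numbered libraries correlated at -0.206, 0.0918, -0.239, -0.419 and -0.113. No i4F library correlated best with the KO library of its own number. The acinar sum, however, was highest in replicate 5 of both groups, at 2355 FPKM in i4F and 295 in KO. The labels name no pairing, so the numbers were not taken as pairs. A factor shared by libraries of the same number was not tested.

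Some estimates changed sign, and the cause was not tested. Trp53 was 0.0405 with array weights, 0.0781 with males alone and 0.0452 with 4 libraries left out, and ran from -0.0788 to 0.0373 with single libraries left out. Mdm2 was 0.00760 with Xist as a covariate and ran from -0.0724 to 0.0285 with single libraries left out. Ptprc was -0.0162 with array weights and -0.0508 without KO replicate 1 and i4F replicate 5, and ran from -0.0181 to 0.383. Prlr was 0.186 with males alone. Slc7a13 was -0.356 with Xist as a covariate and ran from -0.0551 to 2.68. Hspa1a was 0.0211 with Xist as a covariate, 0.279 with males alone, 0.000490 without KO replicate 1 and i4F replicate 5 and 0.159 with 4 libraries left out, and ran from -0.263 to 0.0584. Hspa1b ran from -0.115 to 0.333. The filter of 5 FPKM gave no value for genes under it. With no read counts, the depth behind low values is unknown.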

Other observations

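The list median of 18 circadian clock genes was 0.008. At an unadjusted p under 0.05 there were 3, all higher in i4F Ink4a/Arf KO, against 2.47% of all genes. That count was 0 without KO replicate 1 and 1 without KO replicate 3 or i4F replicate 3. With Xist as a covariate 7 were higher and 5 lower. Cry2, a repressor of the clock, averaged 3.62 ± 0.734 FPKM (SD, n = 5) in i4F and 4.85 ± 0.925 in KO (log2 fold change 0.34 ± 0.14), and Clock, an activator, 5.285 ± 0.983 and 6.89 ± 1.22 (0.33 ± 0.14). The time of day at which tissue was taken is not given in the labels. C4b, complement component 4, was at 7.21, 3.79, 2.48, 2.95 and 1.32 FPKM in i4F and at 6.54, 13.5, 10.3, 3.38 and 7.23 in KO, with a log2 fold change of 1.03 ± 0.37 (limma unadjusted p = 0.019, adjusted p = 0.605).

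Markers of fat cells were high in single mice of either genotype. Over 5 tested genes the median deviation from their i4F means was 2.11 log2 units in i4F replicate 4 and 1.25 in KO replicate 5. Red blood cell transcripts were highest in KO replicate 1, at 2.58 log2 units over the i4F mean.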
